A study of Equus caballus with 23 samples.

Results

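The SLC25 genes encode the mitochondrial solute carriers, and 33 of them were examined in the gluteus medius, a large hindquarter muscle, of Arabian horses in flat race training. The members were all genes whose symbol in the authors' annotation starts with SLC25. That gave 33 of the 8842 identifiers that carry a symbol, and the gene count table held 26991 identifiers in all. All 33 had enough reads to be tested among 11545 genes, with mean levels from 1.46 to 2341 CPM (reads scaled to a common library size with TMM factors) and a lowest count of 9 reads in any library. RNA from needle biopsies was sequenced in 23 libraries at 3 time points. The 5 horses of T0 (3 male, 2 female) were aged 2.5 years and had not been trained. T1 comprised 8 horses aged 3 years (4 male and 4 female), sampled once a period of intense gallops was over. T2 comprised 10 horses aged 3 years (7 male and 3 female), sampled when their racing season ended. All were of 1 breed, and no agent or genotype separates the groups. T0 horses were also younger, so training and age cannot be told apart in comparisons with T0. Library numbers never recur between time points, and repeat sampling of a horse is neither stated nor denied in the labels. Libraries were therefore compared as unpaired, and p-values measure only the spread between these libraries.

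SLC25 carriers are folded from repeated membrane-spanning modules and sit mostly in the inner mitochondrial membrane, which is otherwise closed to charged metabolites. Each moves a small set of solutes, often by exchanging one for another. In muscle they bring ADP and phosphate to ATP synthase and send ATP out to the myofibrils, carry the metabolites of the malate-aspartate shuttle, take in fatty acids as acylcarnitines, and supply cofactors, nucleotides, amino acids and iron to the matrix.

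Total counts were 12185608 to 23641809 per library, and mitochondrially encoded genes took 42.9% of counts on average at T0, 53.0% at T1 and 48.1% at T2. All 9 skeletal muscle markers were measured, and of these 1 (PYGM) was lower at T1 than at T0, while at T2 against T1 PYGM was higher and TTN and NEB were lower, with 5 of 9 at an unadjusted p below 0.05. A fibre score, the mean log2 CPM of 15 slow fibre genes minus that of 14 fast fibre genes, ran from -5.01 to -3.18 at T0, from -1.99 to 3.85 at T1 and from -4.34 to -2.06 at T2, so T1 overlapped with neither other time point. Library m3 had the highest T1 score, and the next highest was 0.80. Summed fibroblast marker CPM was 114 to 415 at T0, 77.5 to 184 at T1 and 94.8 to 311 at T2, and 3 of 9 measured markers (POSTN, DCN and COL3A1) were lower at T1 than at T0. Of 7 measured endothelial markers edgeR called 0 in each comparison of time points, with 0, 1 and 1 at an unadjusted p below 0.05. Of 5 measured macrophage markers 1 was lower at T2 than at T1, and of 4 measured adipocyte markers 1 (LPL) was higher at T1 than at T0 and lower at T2 than at T1, and 1 (SCD) was lower at T2 than at T0. The median log2 difference of these 4 was -0.57 in T1 minus T0. Among all genes, edgeR called 6.91% in T1 minus T0, 27.6% in T2 minus T1 and 16% in T2 minus T0. No erythroid marker was among the tested genes. The part of fibre type and of other cells in the carrier values was not tested. Some values are given with the fibre score as a covariate. As T1 scores overlapped with neither other time point, that fit cannot separate fibre type from time point in comparisons with T1. In whole biopsies, fewer cells of a type and less RNA per cell cannot be told apart.

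Summed over all members, carrier RNA was 3273 ± 395 CPM at T0 (SD, n = 5), 4378 ± 414 CPM at T1 (SD, n = 8) and 4945 ± 736 CPM at T2 (SD, n = 10). The libraries ranged from 2732 to 3670 CPM at T0, from 3626 to 4912 CPM at T1 and from 3421 to 5668 CPM at T2. Only m8 among the T0 libraries reached into the T1 range, and T2 overlapped with both. SLC25A4 alone supplied 49.7%, 54.0% and 53.9% of SLC25 reads at T0, T1 and T2, and SLC25A4 with SLC25A3 supplied 75.8%, 80.0% and 80.4%, so the sum is mainly the level of these carriers. As a share of all raw reads, the family stood at 0.395%, 0.396% and 0.494%, and as a share of reads outside the mitochondrial genome at 0.690%, 0.845% and 0.956%.

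The first comparison asked which carriers differed between untrained horses and those at the end of the gallop phase. At T1, SLC25A4, SLC25A21, SLC25A34, SLC25A36 and SLC25A42 were higher than at T0 and SLC25A17 was lower, by edgeR's quasi-likelihood test with Benjamini-Hochberg adjustment over all genes. These 6 are 18.2% of the members, against 6.91% of all genes tested (3.57% higher and 3.34% lower) and 7.10% of those with a symbol. An unadjusted p below 0.05 was found for 11 members. The share of all genes at that unadjusted threshold is not given here, so counts at it have no background to be read against. The median log2 difference was 0.19 over the members and -0.02 over all genes. The CPM ranges of T0 and T1 were apart for SLC25A21 above and SLC25A17 below, where 1.86% and 1.12% of all genes had such ranges. Without T0 library m10, 2 members and 2.97% of all genes were called. With the fibre score as a covariate none of the 33 was called by edgeR, nor was any other gene, and 6 members had an unadjusted p below 0.05. That fit gave log2 differences (± SE) of 0.21 ± 0.31 for SLC25A21, 0.32 ± 0.21 for SLC25A4 and 0.44 ± 0.23 for SLC25A34. For SLC25A42, SLC25A36 and SLC25A17 they were 0.72 ± 0.39, 1.10 ± 0.36 and -0.68 ± 0.26.

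Between T1 and T2, across the racing season, 11 members were called. SLC25A17, SLC25A26 and SLC25A28 were higher at T2, and SLC25A15, SLC25A20, SLC25A23, SLC25A29, SLC25A34, SLC25A36, SLC25A42 and SLC25A46 were lower. The 11 are 33.3% of the members, near the 27.6% of all genes (12.6% higher and 15.1% lower) and the 29.7% of tested genes with a symbol. The median log2 difference was -0.10 over the members and -0.01 over all genes, and no member had separate ranges (0.788% of all genes did above and 1.45% below). With the fibre score as a covariate, 5 of the 11 stayed called (SLC25A20, SLC25A26, SLC25A28, SLC25A36 and SLC25A46), where 20.7% of all genes were called. For the 6 that lost the call, that fit gave log2 differences (± SE) as follows. They were -0.51 ± 0.22 for SLC25A15, 0.56 ± 0.22 for SLC25A17 and -0.49 ± 0.21 for SLC25A23. For SLC25A29, SLC25A34 and SLC25A42 they were -0.997 ± 0.38, -0.47 ± 0.18 and -0.79 ± 0.31.

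Between T0 and T2, the end of the season against no training, SLC25A3, SLC25A4, SLC25A21, SLC25A26 and SLC25A28 were higher at T2 and SLC25A46 was lower. These 6 members are again 18.2%, near the 16% of all genes (6.73% higher and 9.30% lower) and the 16.7% of those with a symbol. The median log2 difference was 0.06 over the members and -0.03 over all genes, and no member had separate ranges (0.944% of all genes did above and 1.72% below). Without T0 library m13, 3 members and 8.43% of all genes were called. Without T2 library m22, 3 members were called, and the share of all genes called was also below the 16% found with all libraries. The 3 comparisons share their libraries, so calls in one are no independent check of another.

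How libraries are scaled bears on all of these directions. When total counts replaced TMM factors, an alternative chosen after seeing the data, the median of all genes moved by -0.40 in T1 minus T0, by 0.14 in T2 minus T1 and by -0.26 in T2 minus T0. Calls among members then became 1 higher and 4 lower, 6 higher and 3 lower, and 0 higher and 1 lower, in the same order, against 29.3%, 23.4% and 13.8% of all genes called. In T1 minus T0 the 5 calls among 33 members are thus a smaller share than among all genes, where with TMM factors it was the larger. No difference that was called with TMM factors turned its sign. Calls lost in T1 minus T0 were SLC25A4, SLC25A34, SLC25A36 and SLC25A42. In T2 minus T1 they were SLC25A15, SLC25A20, SLC25A23, SLC25A36 and SLC25A46, and in T2 minus T0 SLC25A3, SLC25A4, SLC25A21, SLC25A26 and SLC25A28.

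**Figure D1:**
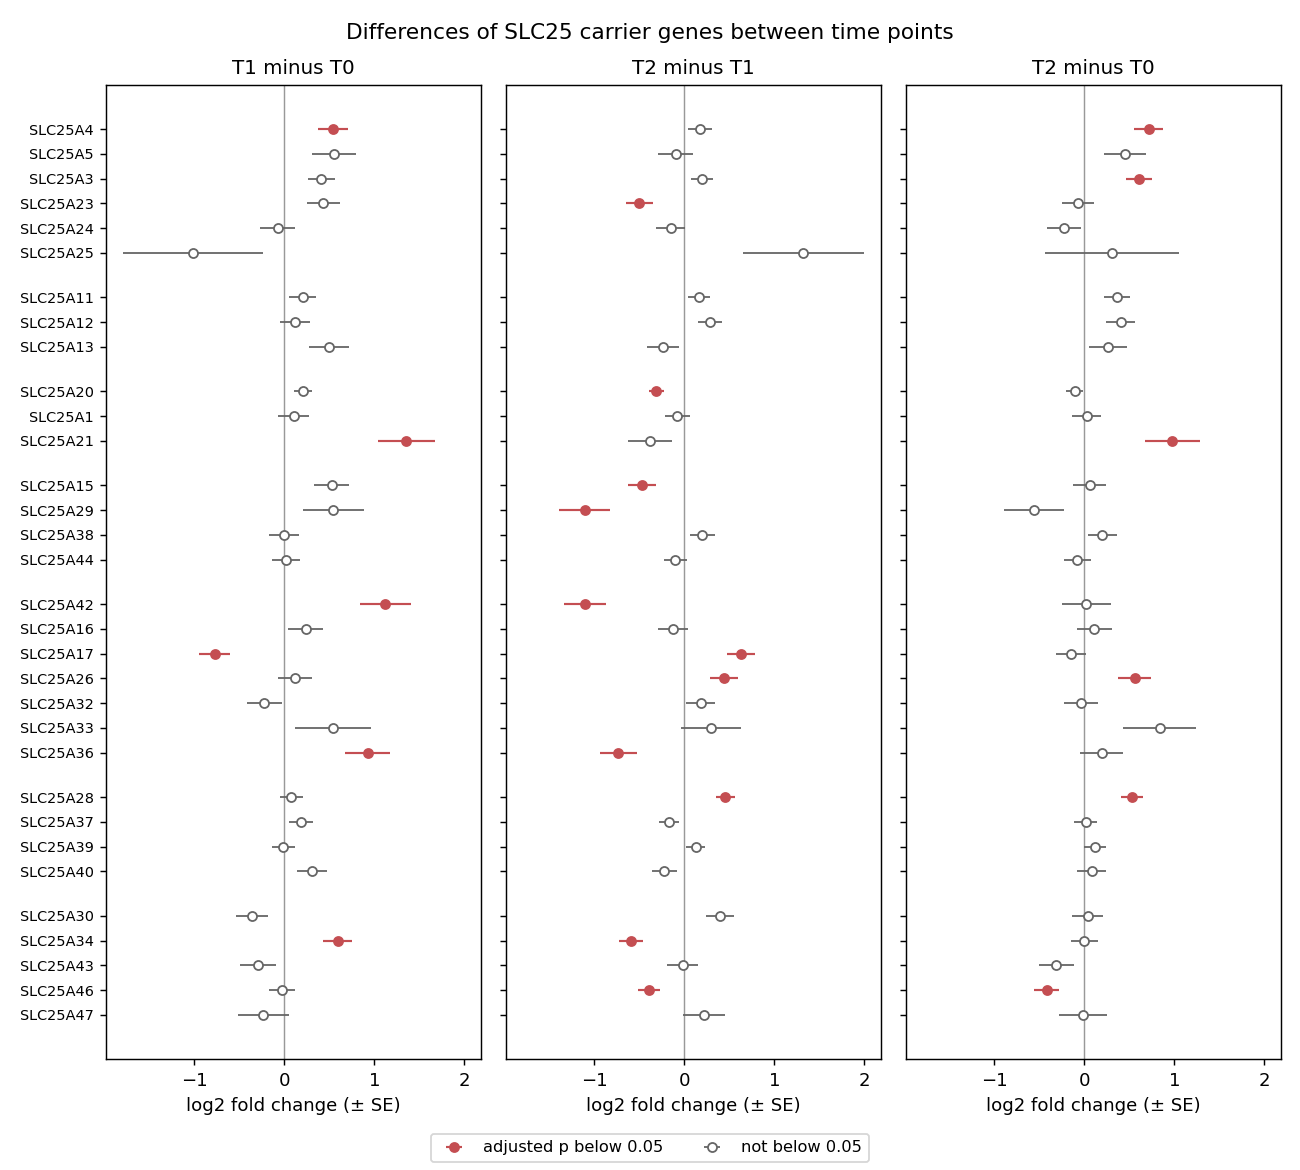
Log2 fold change (± SE) of the carrier genes reported by name or range in T1 minus T0, T2 minus T1 and T2 minus T0, with genes grouped by role and filled red points for adjusted p below 0.05. SLC25A34, SLC25A36 and SLC25A42 lie right of zero in the left panel and left of zero in the middle one, while SLC25A3, SLC25A4 and SLC25A28 stand right of zero at T2 against T0.

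Among carriers of ATP supply, SLC25A4 (ENSECAG00000020944, chromosome 27: 24992730-24996387 in the authors' annotation), the ADP/ATP translocase of heart and skeletal muscle, was higher at both trained time points. In the untrained horses it read 2048 CPM in m8, 1731 in m9, 1455 in m10, 1585 in m12 and 1327 in m13. The T1 libraries gave a lowest value of 1984 CPM (m11), a median of 2377 and a highest of 2908 (m3), and the T2 libraries 1764 (m15), 2755 and 3411 (m21). Of the T0 libraries only m8 reached into the T1 range, and m8 alone exceeded the lowest T2 library. The log2 difference was 0.54 ± 0.16 (SE, adjusted p = 0.0452) for T1 minus T0 and 0.72 ± 0.16 (adjusted p = 0.00607) for T2 minus T0, a 1.64-fold higher level. The later step, T2 minus T1, was 0.18 ± 0.13 (adjusted p = 0.336). The T1 call is at the edge: it was lost without any 1 of m1, m2, m3, m4, m5, m7, m9, m10, m12, m13, m16, m18, m20 or m22, with adjusted p up to 0.117 and a smallest difference of 0.48. It was also lost without m3 and m12 together, and when only the T0 and T1 libraries were fitted. The T2 call was kept without any 1 library, with adjusted p up to 0.0243. With total counts in place of TMM factors, the same test called neither. The differences were then 0.10 for T1 minus T0 (adjusted p = 0.663) and 0.43 for T2 minus T0 (adjusted p = 0.0865).

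SLC25A3 (ENSECAG00000015135, chromosome 28: 23042363-23048809), which brings phosphate, and also copper, into the matrix, was higher at T2 than at T0. Its T0 levels were 829.5 CPM in m8, 888.3 in m9, 778.1 in m10, 1128 in m12 and 660.7 in m13. At T1 it spanned 964.6 (m11) to 1323 (m1) around a median of 1147, and at T2 918.5 (m15) to 1689 (m17) around 1336. T0 library m12 lay within both later ranges, and the other T0 libraries lay below both. T2 minus T0 was 0.61 ± 0.15 (adjusted p = 0.00892), T1 minus T0 0.41 ± 0.15 (adjusted p = 0.0940) and T2 minus T1 0.20 ± 0.12 (adjusted p = 0.244). Without m12, the T1 difference was 0.53 and passed the threshold (adjusted p = 0.0285).

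SLC25A5, the broadly expressed ADP/ATP translocase, did not pass in any comparison. It stood at 7.04 CPM in m8, 3.51 in m9, 4.95 in m10, 2.76 in m12 and 2.25 in m13, at 5.22 (m2) to 7.24 (m4) at T1 with a median of 5.98, and at 3.11 (m19) to 9.19 (m14) at T2 with a median of 5.85. The log2 differences were 0.55 ± 0.24 (adjusted p = 0.176) for T1 minus T0 and 0.45 ± 0.23 (adjusted p = 0.180) for T2 minus T0. Without m8, its highest T0 library, both passed, at 0.85 and 0.77. SLC25A4 made up 99.75% ± 0.09 of the reads of this pair at T0, 99.74% ± 0.03 at T1 and 99.79% ± 0.04 at T2 (SD), and no difference in that share passed an exact two-sided permutation test adjusted over 6 tests (smallest adjusted p = 0.0666, T2 minus T1). The coding sequences of these translocases are alike, and short reads shared between them were divided by the authors' estimator, so the low values of SLC25A5 are uncertain.

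Of SLC25A23, SLC25A24 and SLC25A25, calcium-regulated carriers that exchange ATP-Mg for phosphate, SLC25A23 was called. SLC25A23 read 4.46 CPM in m8, 4.99 in m9, 4.79 in m10, 2.65 in m12 and 7.14 in m13. It ran from 4.75 (m1) through a median of 6.39 to 8.50 (m3) at T1 and from 3.21 (m21) through 4.69 to 6.32 (m15) at T2, so the T2 median lay below the lowest T1 library. T2 minus T1 was -0.50 ± 0.15 (adjusted p = 0.0154), and T1 minus T0 was 0.43 ± 0.18 (adjusted p = 0.158). SLC25A24 passed in no comparison, with means of 3.20, 3.07 and 2.76 CPM at T0, T1 and T2. SLC25A25 was the most variable member between libraries of 1 time point: it ran from 2.12 to 17.8 CPM at T0, from 1.21 to 8.11 at T1 and from 1.203 to 40.4 at T2, and its SE of 0.67 to 0.77 left no call.

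Of 13 measured partners of these carriers, such as porins, kinases and ATP synthase subunits, 1 was higher at T1 than at T0, 0 were called between T2 and T1 by edgeR (2 at an unadjusted p below 0.05), and 4 were higher at T2 than at T0. Their median log2 differences were 0.34, -0.04 and 0.29, against -0.02, -0.01 and -0.03 over all genes. Beside this and each later list, 3.57% of all genes were called higher and 3.34% lower in T1 minus T0. These shares were 12.6% and 15.1% in T2 minus T1, and 6.73% and 9.30% in T2 minus T0. ATP5B, the catalytic beta subunit of ATP synthase, rose from 2380.0 ± 385 CPM at T0 to 3585 ± 550.1 at T1 (log2 difference 0.59 ± 0.17, adjusted p = 0.0372) and was also higher at T2 (0.56 ± 0.17, adjusted p = 0.0255). At T2 against T0, ATP5C1, the gamma subunit, differed by 0.59 ± 0.17 (adjusted p = 0.0205) and VDAC2, an outer membrane porin, by 0.51 ± 0.13 (adjusted p = 0.0134).

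**Figure D2:**
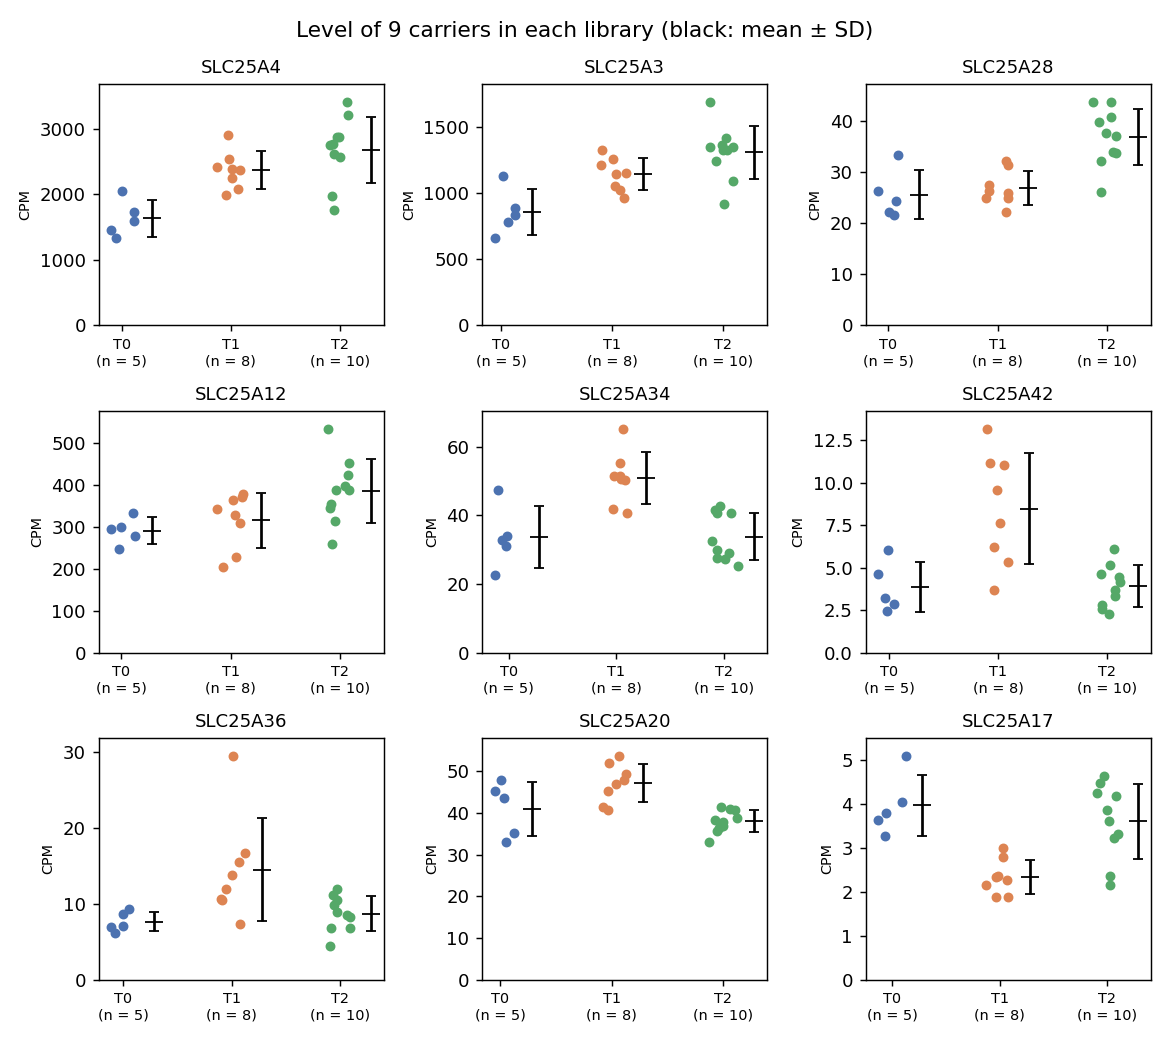
CPM (linear axis from 0) of 9 carriers in each library at T0, T1 and T2, with the mean and SD in black beside the points. SLC25A4 and SLC25A3 have T0 means of 1629 and 857 CPM below those of T1 and T2, SLC25A34, SLC25A36 and SLC25A42 have their highest mean at T1, and SLC25A17 its lowest.

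For the malate-aspartate shuttle, which carries reducing power from cytosolic NADH into mitochondria, 0 of the 3 carriers passed the gene-level edgeR test in any comparison, with 1, 1 and 2 at an unadjusted p below 0.05. SLC25A11, the exchanger of 2-oxoglutarate and malate, read 201.4 CPM in m8, 211 in m9, 182 in m10, 203 in m12 and 162 in m13. It ran from 145 (m11) to 297 (m4) at T1 with a median of 228, and from 202 (m15) to 314 (m14) at T2 with a median of 242. Of the T2 libraries only m15 was below the T0 maximum, but T2 minus T0 was 0.37 ± 0.14 (adjusted p = 0.0771) and did not pass.

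SLC25A12 (ENSECAG00000009055, chromosome 18: 50992086-51086811), the muscle and brain aspartate/glutamate carrier whose cytosolic part binds calcium, gave 278 CPM in m8, 294 in m9, 300.2 in m10, 333 in m12 and 246 in m13. At T1 it went from 204 (m11) to 379 (m4) around a median of 335, and at T2 from 258 (m15) to 534 (m17) around 387. The time points overlapped, and T2 minus T0 was 0.41 ± 0.16 (adjusted p = 0.0799). SLC25A12 passed without m3 or without m15, and SLC25A11 without m3 or without m11. Both passed in T2 minus T0 with DESeq2 and with the fibre score as a covariate.

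SLC25A13, the aspartate/glutamate carrier best known from liver, read 3.52 CPM in m8, 2.71 in m9, 1.95 in m10, 2.97 in m12 and 1.46 in m13. Its T1 range was 2.77 (m1) to 4.77 (m2) around 3.46, and its T2 range was 1.83 (m15) to 4.44 (m23) around 3.16, with no call in any comparison. SLC25A12 held 98.87% ± 0.21 of the reads of the aspartate/glutamate pair at T1 and 99.21% ± 0.22 at T2 (SD), a difference of 0.34 percentage points (p = 0.00626 by the exact permutation test, two-sided, and 0.0376 after adjustment over 6 tests). At T0 the share was 99.14% ± 0.26. The T2 minus T1 call was lost without any 1 of m3, m4, m6, m7, m11, m15, m16, m17 or m18, with differences of 0.30 to 0.35 points.

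Of 7 partner enzymes of this shuttle and of the parallel glycerol phosphate shuttle, 1 was higher and 2 were lower at T1 than at T0, 1 was higher at T2 than at T1, and 2 were higher at T2 than at T0. Median log2 differences were 0.32, 0.09 and 0.25. MDH1, the cytosolic malate dehydrogenase, was higher at T1 (0.76 ± 0.18, adjusted p = 0.0143) and at T2 (0.64 ± 0.18, adjusted p = 0.0190) than at T0. GPD1, the cytosolic glycerol phosphate dehydrogenase, went the other way at T1 (-0.61 ± 0.16, adjusted p = 0.0243) and was higher again at T2 than at T1 (0.62 ± 0.14, adjusted p = 0.00194). GPD2, its mitochondrial counterpart, was lower at T1 than at T0 (-0.61 ± 0.19, adjusted p = 0.0474).

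SLC25A12 had 2 named transcripts among those tested, and only SLC25A12-201 was called, at T2 against both other time points. SLC25A46 is also annotated with 2 transcripts, which were not analysed here. SLC25A12-201 spans chromosome 18: 50992086-51068968 and SLC25A12-202 spans 50992983-51086811, so the longer span reaches further in one direction and the shorter in the other. SLC25A12-201 was higher at T2 than at T1 by 0.61 ± 0.15 on the log2 scale (adjusted p = 0.00656 over 12334 transcripts) and than at T0 by 0.77 ± 0.18 (adjusted p = 0.0114). SLC25A12-202 differed by -0.15 ± 0.14 (adjusted p = 0.464) and -0.07 ± 0.16 (adjusted p = 0.801). At transcript level 4.98% of those tested were called in T1 minus T0, 23.9% in T2 minus T1 and 12.4% in T2 minus T0.

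The share of SLC25A12 reads assigned to SLC25A12-201, a measure chosen after these values were seen, was 49.7% in m8, 48.7% in m9, 47.8% in m10, 53.5% in m12 and 45.3% in m13. At T1 it ran from 46.6% (m5) to 63.8% (m3) with a mean of 51.1% ± 5.75 (SD, n = 8), and at T2 from 54.2% (m15) to 71.0% (m17) with a mean of 63.0% ± 5.28 (SD, n = 10). All T2 libraries were above all T0 libraries, and at T1 only m3 was above the lowest T2 library. The T2 mean was 13.95 points above T0 and 11.8 points above T1 (exact two-sided permutation tests, p = 0.000666 and 0.000777, adjusted p = 0.00117 for both over 3 tests), and T1 was 2.13 points above T0 (p = 0.536). The same libraries had already shown the difference, so these tests are no independent check of it. Without m3 the T2 minus T1 difference was 13.6 points. Among 144 genes with 2 tested transcripts, the share had separate ranges in 1.39% for T0 and T1, 4.86% for T1 and T2 and 6.25% for T0 and T2, and 17 genes had a larger T2 minus T0 difference than SLC25A12. In T2 minus T1, 34 of the 144 had a larger one, and the median absolute difference over them was 6.92 points. These shares are the authors' estimates from 50-base single reads, and how well such reads separate the 2 transcripts was not tested.

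**Figure D3:**
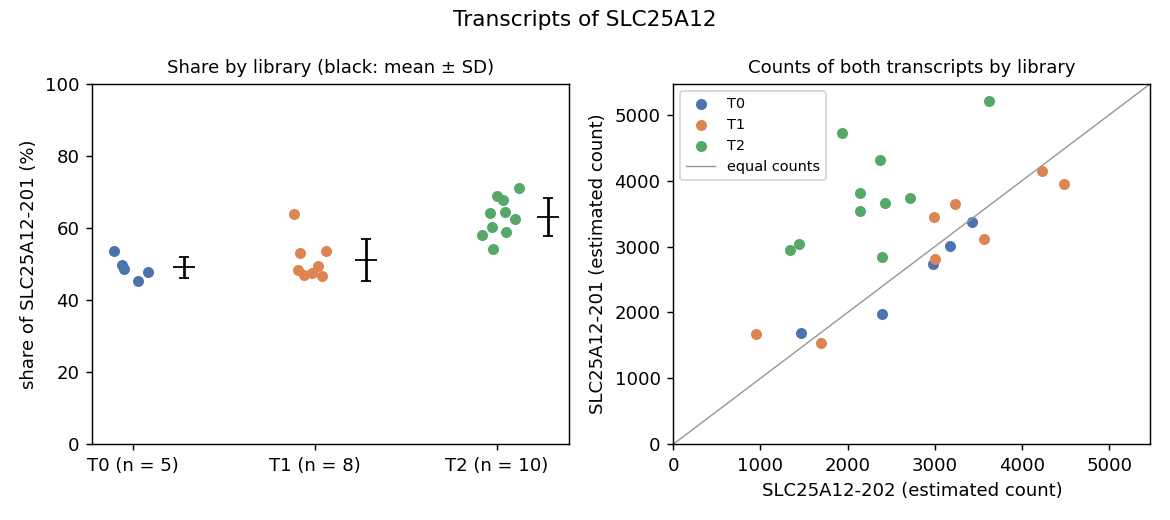
Left, share of SLC25A12 reads assigned to SLC25A12-201 (%) in each library with mean and SD in black; right, estimated counts of both transcripts in each library, with a line at equal counts. T0 libraries lie at 45.3% to 53.5% near the line, and all 10 T2 libraries lie above it at 54.2% to 71.0%.

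In the fatty acid and organic acid group, SLC25A20 (ENSECAG00000019650, chromosome 16: 38092530-38257951), the carnitine/acylcarnitine exchanger that admits long-chain fatty acids, was lower at T2 than at T1. It measured 35.2 CPM in m8, 43.6 in m9, 33.04 in m10, 47.8 in m12 and 45.3 in m13. T1 ranged from 40.8 (m6) to 53.7 (m5) around 47.5, and T2 from 33.1 (m16) to 41.5 (m21) around 38.0, so the ranges touch only at their edges. The season's difference, T2 minus T1, was -0.31 ± 0.08 (adjusted p = 0.00710), a 0.806-fold level. T1 minus T0 was 0.20 ± 0.10 (adjusted p = 0.235) and turned to -0.17 under total count scaling.

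Of 10 measured partners in acylcarnitine formation and use, 3 were higher at T1 than at T0, 4 were lower at T2 than at T1 and 1 was lower at T2 than at T0, with list medians of 0.34, -0.14 and 0.16. The shares of all genes called in these directions were 3.57%, 15.1% and 9.30%. CPT1B, the outer membrane palmitoyltransferase of muscle, rose from 49.7 ± 13.9 CPM at T0 to 102 ± 30.2 at T1 (1.04 ± 0.23, adjusted p = 0.00841), and CPT2, its inner membrane counterpart, from 29.2 ± 7.15 to 58.6 ± 20.02 (1.002 ± 0.19, adjusted p = 0.00349). ACACB, which makes the malonyl-CoA that inhibits CPT1, fell from 50.8 ± 8.40 CPM at T1 to 26.6 ± 5.67 at T2 (-0.94 ± 0.12, adjusted p = 1.45e-05).

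SLC25A21 (ENSECAG00000002597, chromosome 1: 173124282-173302403), the oxodicarboxylate carrier that takes 2-oxoadipate from lysine and tryptophan breakdown, was 2.56-fold higher at T1 than at T0. It was at 1.76 CPM in m8, 2.18 in m9, 2.47 in m10, 1.27 in m12 and 1.29 in m13, and every T1 library was above these, from 2.61 (m6) through a median of 3.41 to 9.81 (m3). At T2 it was 2.34 (m14) to 5.56 (m23) around 3.18, where only m10 of the T0 libraries overlapped. T1 minus T0 was 1.35 ± 0.32 (adjusted p = 0.0113) and T2 minus T0 0.98 ± 0.31 (adjusted p = 0.0325). The T2 call was lost without m8, m12, m13 or m22, with differences of 0.88 to 0.99. SLC25A1, the citrate carrier, passed in no comparison, at means of 9.50, 10.3 and 9.72 CPM.

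Among 14 measured enzymes that make or use citrate and dicarboxylates, 6 were higher at T1 than at T0, 1 was higher and 4 were lower at T2 than at T1, and 3 were higher and 1 lower at T2 than at T0. The shares of all genes called in these directions were 3.57%, 12.6%, 15.1%, 6.73% and 9.30%, in the same order. List medians were 0.46, -0.22 and 0.25. ME3, the mitochondrial NADP malic enzyme, had the log2 differences 1.40 ± 0.23 for T1 minus T0 (adjusted p = 0.00113) and -0.85 ± 0.18 for T2 minus T1 (adjusted p = 0.00112). ME1, the cytosolic form, was higher at T2 than at T1 by 0.76 ± 0.13 (adjusted p = 0.000243). OGDH, the 2-oxoglutarate dehydrogenase subunit, was lower at T2 than at T1 by 0.55 (log2 difference -0.55 ± 0.13, adjusted p = 0.00239).

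Of the 4 amino acid carriers, 2 were lower at T2 than at T1, as were 15.1% of all genes. In T1 minus T0 and T2 minus T0 edgeR called 0 of the 4, with 1 and 0 at an unadjusted p below 0.05. SLC25A29, a carrier of basic amino acids, read 1.52 CPM in m8, 1.66 in m9, 1.16 in m10, 1.27 in m12 and 4.89 in m13. It ran from 1.53 (m1) to 4.99 (m3) at T1 with a median of 3.08, and from 0.766 (m18) to 3.23 (m22) at T2 with a median of 1.29. The T1 minus T0 difference of 0.54 ± 0.34 was not called (adjusted p = 0.367), and m13 lay with the T1 libraries. T2 minus T1 was -1.10 ± 0.28 (adjusted p = 0.00552), a 0.466-fold level.

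SLC25A15, the ornithine carrier, read 1.92 CPM in m8, 3.28 in m9, 1.68 in m10, 2.76 in m12 and 1.80 in m13. It ranged from 2.65 (m7) to 4.18 (m4) at T1 with a median of 3.14, and from 1.48 (m18) to 3.01 (m15) at T2 with a median of 2.46. The later time points overlapped between 2.65 and 3.01 CPM, and the T2 minus T1 difference was -0.47 ± 0.16 (adjusted p = 0.0291). The call was lost without m4, m5 or m18, with differences of -0.41 to -0.45. It was also lost without the filter on low counts.

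SLC25A44, the mitochondrial carrier of branched-chain amino acids, showed no difference that passed. It was at 3.69 CPM in m8, 4.23 in m9, 4.47 in m10, 5.30 in m12 and 5.34 in m13, at 3.58 (m6) to 5.77 (m1) around 4.68 at T1, and at 2.79 (m21) to 5.26 (m16) around 4.44 at T2. Its log2 differences were 0.02 ± 0.15, -0.10 ± 0.13 and -0.08 ± 0.15 (adjusted p = 0.958, 0.589 and 0.748). SLC25A38, the glycine carrier of haem synthesis, had means of 6.20, 6.18 and 7.09 CPM and passed in none. Of 10 measured branched-chain breakdown genes, 3 were higher at T1 than at T0, 2 were lower at T2 than at T1, and 2 were higher and 1 lower at T2 than at T0, with medians of 0.41, -0.17 and 0.15. IVD, isovaleryl-CoA dehydrogenase of leucine breakdown, rose to 41.5 ± 3.65 CPM at T1 from 29.2 ± 2.65 (0.51 ± 0.11, adjusted p = 0.00879) and fell to 22.9 ± 3.61 at T2 (-0.86 ± 0.09 against T1, adjusted p = 3.39e-06). HIBCH, of valine breakdown, was higher at T1 than at T0 (0.46 ± 0.11, adjusted p = 0.0111), and PPM1K, the phosphatase that activates the branched-chain dehydrogenase, was lower at T2 than at T1 (-0.80 ± 0.21, adjusted p = 0.00623).

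The 8 carriers of cofactors and nucleotides split by direction, and SLC25A42 and SLC25A36 had their highest level at T1. SLC25A42 (ENSECAG00000011367, chromosome 21: 3606290-3616531), which exchanges coenzyme A, gave 4.63 CPM in m8, 3.23 in m9, 2.47 in m10, 2.86 in m12 and 6.02 in m13. The T1 libraries ran from 3.71 (m6) through 8.60 to 13.2 (m7), and the T2 libraries from 2.25 (m17) through 3.92 to 6.11 (m21). Most T1 libraries were above all others. T1 minus T0 was 1.12 ± 0.28 (adjusted p = 0.0186) and T2 minus T1 -1.10 ± 0.23 (adjusted p = 0.00108). The T1 minus T0 call was lost without m10, and also without m3 and m12 together.

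SLC25A36 (ENSECAG00000010094, chromosome 16: 75202791-75220512), a pyrimidine nucleotide carrier, read 9.30 CPM in m8, 8.60 in m9, 6.997 in m10, 7.10 in m12 and 6.19 in m13. It rose to a T1 median of 12.9 (7.36 in m3 to 29.5 in m6) and was at a median of 8.70 at T2 (4.49 in m17 to 11.97 in m20). T1 minus T0 was 0.93 ± 0.25 (adjusted p = 0.0270) and T2 minus T1 -0.73 ± 0.20 (adjusted p = 0.00922). The first call was lost without m10 or m13, with differences of 0.91 and 0.86. It was also lost when only the T0 and T1 libraries were fitted. SLC25A33, the other pyrimidine carrier, did not pass, with means of 3.22, 4.59 and 5.55 CPM.

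SLC25A17 (ENSECAG00000008907, chromosome 28: 37366478-37404037), which works in peroxisomes rather than mitochondria and carries cofactors such as coenzyme A and FAD, showed the opposite course. It read 3.64 CPM in m8, 3.80 in m9, 5.10 in m10, 3.29 in m12 and 4.05 in m13. The T1 libraries lay below all of these, from 1.89 (m2) through 2.31 to 3.00 (m1), and the T2 libraries ran from 2.15 (m20) through 3.74 to 4.65 (m18). T1 minus T0 was -0.77 ± 0.18 (adjusted p = 0.00912) and T2 minus T1 0.63 ± 0.15 (adjusted p = 0.00323).

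SLC25A26 (ENSECAG00000015020, chromosome 16: 23165650-23301467), which imports S-adenosylmethionine for methylation inside mitochondria, was higher at T2. It stood at 15.2 CPM in m8, 13.9 in m9, 13.6 in m10, 22.6 in m12 and 12.4 in m13, at 13.7 (m2) to 23.6 (m3) around 15.5 at T1, and at 14.5 (m15) to 31.6 (m17) around 21.1 at T2. T2 minus T1 was 0.44 ± 0.16 (adjusted p = 0.0374) and T2 minus T0 0.56 ± 0.18 (adjusted p = 0.0394). The first call was lost without m2, m4, m5, m7, m11, m16, m17, m18 or m22 (differences of 0.38 to 0.44) and the second without m8, m9, m10, m13, m16, m17, m18 or m22 (0.49 to 0.57). With sex as a covariate the first was also lost. The second was also lost with the fibre score as a covariate, and when only the T0 and T2 libraries were fitted. SLC25A16 and SLC25A32, the folate and FAD carrier, passed in no comparison, with log2 differences between -0.22 and 0.24.

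Among iron carriers, 1 of the mitoferrins was higher at T2 than at both earlier time points. SLC25A28 (ENSECAG00000009356, chromosome 1: 30037193-30046658), mitoferrin of non-erythroid tissues, read 22.2 CPM in m8, 24.5 in m9, 26.4 in m10, 33.4 in m12 and 21.5 in m13. T1 ran from 22.2 (m1) to 32.2 (m3) around 26.1, and T2 from 26.2 (m15) to 43.8 (m22) around 37.4. T2 minus T1 was 0.45 ± 0.11 (adjusted p = 0.00266) and T2 minus T0 0.53 ± 0.12 (adjusted p = 0.00782), T1 minus T0 was 0.08 ± 0.13 (adjusted p = 0.791), and neither call was lost without any 1 library. SLC25A37, the mitoferrin of red cell precursors, had means of 5.64, 6.44 and 5.72 CPM and passed in none, as did the glutathione carriers SLC25A39 (17.4, 17.2 and 18.9 CPM) and SLC25A40 (1.63, 2.00 and 1.72 CPM).

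Of 11 measured iron-sulfur cluster and haem genes, 3 were higher at T1 than at T0, 2 were higher and 2 lower at T2 than at T1, and 3 were higher at T2 than at T0, with list medians of 0.39, -0.09 and 0.30. ISCU, the cluster scaffold, was higher than at T0 by 0.54 ± 0.13 at T1 (adjusted p = 0.0170) and 0.57 ± 0.13 at T2 (adjusted p = 0.00717). GLRX5, which passes clusters on, was higher at T1 than at T0 (0.84 ± 0.19, adjusted p = 0.0106) and lower at T2 than at T1 (-0.47 ± 0.16, adjusted p = 0.0277).

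In the remaining group, SLC25A34 (ENSECAG00000013382, chromosome 2: 37205242-37208510) was high at T1. It read 31.2 CPM in m8, 22.7 in m9, 32.9 in m10, 34.1 in m12 and 47.5 in m13, 40.6 (m6) to 65.3 (m3) around 51.1 at T1, and 25.3 (m17) to 42.8 (m14) around 31.2 at T2. Only m13 among the T0 libraries lay in the T1 range. T1 minus T0 was 0.59 ± 0.16 (adjusted p = 0.0259) and T2 minus T1 -0.59 ± 0.13 (adjusted p = 0.00180), while T2 minus T0 was 0.00 ± 0.15 (adjusted p = 0.998). The T1 minus T0 call was lost without m8, m9 or m10, with differences of 0.48 to 0.59. It was also lost without m3 and m12 together.

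SLC25A46 (ENSECAG00000022177, chromosome 14: 60873248-60894137), an outer membrane member that takes part in mitochondrial shape, was the member lower at T2 than at both other time points. It read 7.66 CPM in m8, 8.22 in m9, 8.05 in m10, 7.95 in m12 and 11.2 in m13, 6.66 (m3) to 9.46 (m7) around 8.54 at T1, and 4.49 (m17) to 9.33 (m20) around 6.66 at T2. T2 minus T1 was -0.39 ± 0.12 (adjusted p = 0.0159) and T2 minus T0 -0.42 ± 0.14 (adjusted p = 0.0375). The T2 minus T0 call was lost without m8, m9, m10, m11, m13, m16, m17 or m22, with differences of -0.30 to -0.44. It was also lost without the filter on low counts, with the fibre score as a covariate, and when only the T0 and T2 libraries were fitted.

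SLC25A30, a relative of the uncoupling proteins, was nearest to the threshold of the 19 members never called: 68.3 ± 19.3 CPM at T0, 53.2 ± 10.4 at T1 and 70.1 ± 16.8 at T2, with T2 minus T1 of 0.40 ± 0.15 (adjusted p = 0.0541). SLC25A43 and SLC25A47 passed in none, with log2 differences between -0.31 and 0.22. UCP2 and UCP3, carriers of the same family that do not carry an SLC25 symbol here, were measured as relatives. UCP3, the muscle form, was higher at T2 than at T1 (1.86 ± 0.49, adjusted p = 0.00826), with means of 33.8 ± 11.9 CPM at T0, 16.6 ± 8.04 at T1 and 60.2 ± 64.3 at T2, and UCP2 passed in none. Of 7 other measured genes of inner or outer membrane proteins, 1 was higher at T1 than at T0. At T2, 1 was higher and 2 lower than at T1, and 4 were higher and 1 lower than at T0. The list medians were 0.35, 0.07 and 0.48. MPC1, a subunit of the pyruvate carrier, was higher at T2 than at T0 (0.60 ± 0.15, adjusted p = 0.0126), as were SFXN4 (0.54 ± 0.13, adjusted p = 0.00851) and MTCH2 (0.49 ± 0.14, adjusted p = 0.0204).

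Mitochondrial calcium uptake had 9 measured genes. Of these 1 was higher at T1 than at T0, 1 was higher and 3 lower at T2 than at T1, and 1 was higher at T2 than at T0, with medians of 0.30, -0.07 and -0.12. MICU2, a regulator of the uniporter, was higher at T2 than at T1 (0.40 ± 0.10, adjusted p = 0.00409), and LETM1, an ion exchanger, was lower (-0.43 ± 0.11, adjusted p = 0.00421).

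Read across the 3 comparisons, 14 members were called at least once. SLC25A34, SLC25A36 and SLC25A42 were called higher at T1 than at T0 and lower at T2 than at T1, and SLC25A17 the reverse. SLC25A4 and SLC25A21 were called higher at T1 and at T2 than at T0, SLC25A26 and SLC25A28 higher at T2 than at both earlier time points, SLC25A46 lower at T2 than at both, and SLC25A3 higher at T2 than at T0 alone. SLC25A15, SLC25A20, SLC25A23 and SLC25A29 were called lower at T2 than at T1 alone. In TMM-scaled CPM, SLC25A3, SLC25A4, SLC25A11 and SLC25A12 each had their lowest value in m13 at T0, m11 at T1 and m15 at T2. Which library is lowest depends on the scaling. As a share of all raw reads, the summed family was lowest in m12 at T0 (0.267%), m3 at T1 (0.324%) and m15 at T2 (0.417%). Libraries m12 and m3 had the lowest TMM factors of their time points, 0.749 and 0.660.

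**Figure D4:**
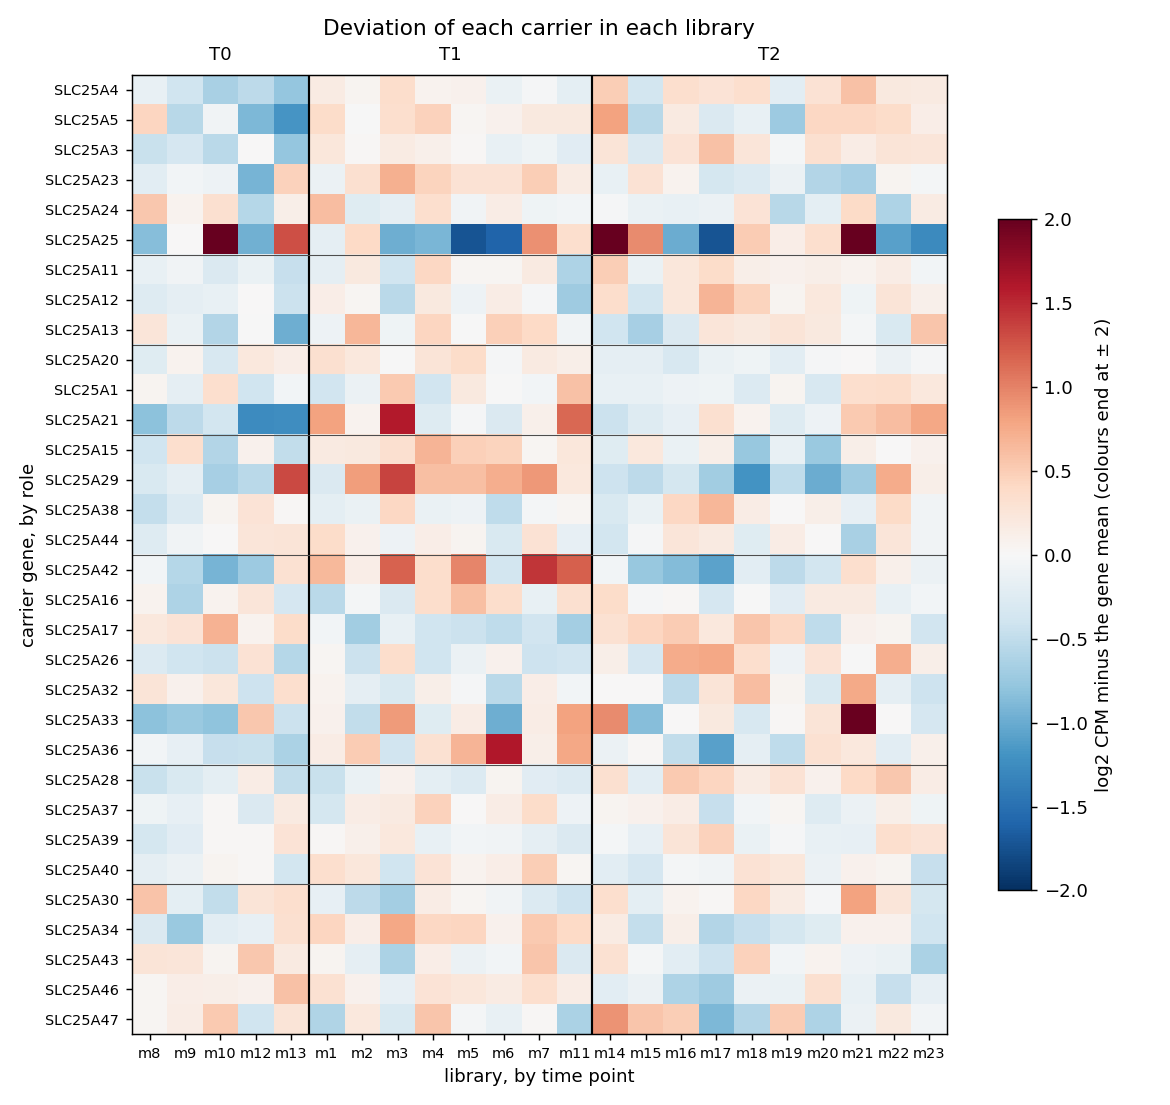
Log2 CPM minus the gene's mean over all 23 libraries for the same carriers (rows, grouped by role) in each library (columns, by time point), with colours ending at ± 2. SLC25A25 changes colour from library to library within each time point, from 1.203 to 40.4 CPM at T2, and SLC25A42 is red in most T1 columns.

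Within a time point, the levels of 6 carriers were set against the fibre score, in 12 relations of which none passed after adjustment. At T1, SLC25A11 gave r = -0.76 (rho = -0.76, exact permutation p = 0.0217 and 0.0368, adjusted p = 0.157 and 0.183, n = 8), and r was -0.82 without the 2 libraries farthest from the median score (m3 and m11). SLC25A12 gave r = -0.80 (rho = -0.74, exact permutation p = 0.0261 and 0.0458, adjusted p = 0.157 and 0.183, n = 8). Its r was -0.87 without m3 alone and -0.05 without m3 and m11, so with m3 left out that relation rests on m11. For SLC25A4 at T1, r was 0.50 (rho = 0.24, exact permutation p = 0.222 and 0.582, adjusted p = 0.533 and 0.886, n = 8) and turned to -0.51 without m3. At T2, SLC25A20 gave r = 0.57 (rho = 0.67, permutation p = 0.0835 and 0.0391, adjusted p = 0.334 and 0.183, n = 10), and r was 0.67 without m17 and m23, the farthest from the median score there.

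No carrier passed between females and males by the same edgeR test in a model with time point: 0 of 33 members and 0.00% of all genes were called, no member had an unadjusted p below 0.05, and DESeq2 called 0 members. The interaction of sex with time called 0 members and 0.00% of all genes by edgeR in each comparison, and 0 members by DESeq2. An unadjusted p below 0.05 was reached by 4, 0 and 3 members for T1 minus T0, T2 minus T1 and T2 minus T0. T0 held 2 females, which limits this test.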

How the data were processed

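RNA from gluteus medius biopsies was prepared with TruSeq RNA v2 and sequenced in 50 single-end cycles with 6 technical repetitions, per the labels' protocols. How the repetitions were combined, and the genome build, are not given in the sources used here. Deposited tables hold expected counts per gene and transcript, and the submitters' processing notes name FastQC, STAR, RSEM and DESeq2. Symbols and coordinates come from the authors' tables, which annotate 9628 identifiers, and their lettered comparisons were not used. Of 46 SLC25 symbols in a RefSeq table, 33 are members and the other 13 were not analysed here. Gene lengths are not in the files, so levels were not corrected for length. Where genes are set side by side, as in the shares, the values are shares of reads and not of RNA molecules.

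Counts, rounded to whole numbers, were fitted in 1 model of 3 time points with edgeR 4.0.16 in R 4.3.3 (robust quasi-likelihood test, TMM, filterByExpr with minimum count 10 and minimum total 15, which kept 11545 genes with 99.93% of counts), with Benjamini-Hochberg adjustment over all genes and a threshold of 0.05. SE is the log2 fold change divided by the square root of F. CPM used TMM-scaled totals, and log2 CPM a prior count of 2. Shares were compared by exact permutation tests (scipy 1.17.1). DESeq2 1.42.0 and limma 3.58.1 (voom) were alternatives. The test was run on simulated data with large changes set in genes of high counts. That check does not cover smaller differences or the low-level carriers. Members and lists were chosen with earlier results of these data known. Named with the value of each T0 library and the lowest, median and highest at T1 and T2 are the called members and SLC25A3, SLC25A4, SLC25A5, SLC25A11, SLC25A12, SLC25A13, SLC25A20 and SLC25A44; SLC25A6, also in that rule, has no member. Of each partner list, up to 3 called genes with the smallest p are named. The results of 1 carrier and of some partner genes are counted but not reported here by name, in the text or the figures.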

Additional observations from a re-analysis of the deposited data

Results flagged for a closer look

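Among 99 groups of member values (a carrier at a time point), 9 held 1 library far from the others by Dixon's criterion, which chance meets in about 1 of 20 groups. At T0, m12 was high for SLC25A26 (22.58 CPM, next 15.15) and for SLC25A33 (6.041 CPM, next 3.037), and m13 was high for SLC25A29 (4.893 CPM, next 1.662) and for SLC25A46 (11.25 CPM, next 8.217). At T1, m6 was high for SLC25A36 (29.48 CPM, next 16.67). At T2, m14 was high for SLC25A25 (40.35 CPM, next 20.08), m21 for SLC25A33 (16.55 CPM, next 8.045), m22 for SLC25A29 (3.23 CPM, next 2.063) and m20 for SLC25A46 (9.334 CPM, next 6.891). Library m12 had a mitochondrial share of 54.95%, the highest at T0, and m13 the lowest fibre score at T0, -5.01. The part of these values in the flagged levels was not tested.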

How the results depend on the processing

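The number of carriers called in T1 minus T0 was 11 with limma voom and 0 with the fibre score as a covariate, against 6. The share of all genes called was then 13.1% and 0%, against 6.91%. In T2 minus T1 it was 5 carriers with that covariate, against 11, and in T2 minus T0 it was 1 with total count scaling, against 6. Those fits called 20.7% and 13.8% of all genes, against 27.6% and 16%. Leaving out each library in turn gave 2 to 6, 9 to 12 and 3 to 8 calls, and 0 between the sexes. For the time points, the share of all genes called then ran from 2.97% to 7.72%, 23.1% to 32.8% and 8.43% to 20.6%. The other settings gave 47 counts within 1.5 times the main one. Outside the fits without 1 library, 412 log2 differences kept their direction and side of the threshold, 38 lost the call, 14 gained one and 9 turned. These cover only the called differences and the fixed carriers SLC25A3, SLC25A4, SLC25A5, SLC25A11, SLC25A12, SLC25A13, SLC25A20 and SLC25A44. Those that turned under total count scaling were SLC25A44 (-0.36), SLC25A12 (-0.26), SLC25A20 (-0.17) and SLC25A11 (-0.19) in T1 minus T0, SLC25A44 (0.0383) and SLC25A5 (0.0523) in T2 minus T1 and SLC25A13 (-0.0284) in T2 minus T0. With the fibre score as a covariate, SLC25A5 (0.14) and SLC25A11 (-0.11) turned in T2 minus T1. Among uncalled differences of the other carriers, total count scaling also turned SLC25A28 (-0.30), SLC25A26 (-0.25), SLC25A1 (-0.34), SLC25A16 (-0.12), SLC25A37 (-0.21) and SLC25A40 (-0.09) in T1 minus T0, SLC25A1 (0.0670), SLC25A16 (0.0028) and SLC25A43 (0.12) in T2 minus T1, and SLC25A1 (-0.27), SLC25A15 (-0.20), SLC25A16 (-0.12), SLC25A30 (-0.20), SLC25A34 (-0.22), SLC25A36 (-0.07), SLC25A37 (-0.25), SLC25A38 (-0.05), SLC25A39 (-0.14), SLC25A40 (-0.18) and SLC25A42 (-0.22) in T2 minus T0. The fibre score as a covariate also turned SLC25A21 (0.56), SLC25A1 (0.24), SLC25A47 (-0.15) and SLC25A32 (-0.0083) in T2 minus T1, SLC25A26 (-0.16), SLC25A28 (-0.03), SLC25A1 (-0.28), SLC25A33 (-0.20), SLC25A24 (0.0075), SLC25A32 (0.0122), SLC25A43 (0.0334), SLC25A46 (0.13) and SLC25A47 (0.22) in T1 minus T0, and SLC25A1 (-0.05), SLC25A32 (0.0038), SLC25A34 (-0.03), SLC25A42 (-0.07) and SLC25A47 (0.0782) in T2 minus T0. The cause was not tested.

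Without 1 library, SLC25A44 in T1 minus T0 lay between -0.0424 and 0.0863. The SLC25A4 share lay between -0.0381 and 0.0053 points in T1 minus T0, 0.0423 and 0.0568 in T2 minus T1, and 0.0105 and 0.0538 in T2 minus T0. The SLC25A12 share lay between -0.37 and -0.21, 0.30 and 0.39, and -0.0325 and 0.132, in the same order, and was 0.33 in T2 minus T1 without m3 and m12 (exact permutation test, adjusted p = 0.0574). The SLC25A12-201 share lay between 0.32 and 3.25, 10.9 and 13.6, and 13.04 and 15.1 points. At T1 without m3, r with the fibre score was -0.39 for SLC25A3, -0.51 for SLC25A4, -0.94 for SLC25A11 and -0.87 for SLC25A12. It was -0.14 for SLC25A20 and -0.22 for SLC25A44. No paired analysis was possible because library numbers are not shared between time points.

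The lowest-level carriers rest on few reads, down to 9 in a library, and their sampling error adds to the differences between libraries. The kit does not mark strand, so reads of overlapping genes cannot be told apart.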
